A study of Homo sapiens with 12 samples.

Results

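The average effect of calcipotriol (CPT) on gene expression was measured in MiaPaca2 cells, an established line from a human pancreatic ductal adenocarcinoma (PDAC). All 12 RNA-seq libraries of the study entered the comparison, the 6 that received CPT against the 6 that did not, and the priming state of the cells was held as a block in the model. The study asked whether epigenetic priming changes how PDAC cells respond to Vitamin D. The average over both priming states asks which genes differed with CPT on the mean of primed and unprimed cells, with 6 libraries on each side in place of the 3 that either state has alone. Without CPT there were 3 control libraries (Con), treated with DMSO, and 3 libraries of cells primed with glyceryl triacetate and 5-Aza-2′-deoxycytidine (GTA+5-Aza). With CPT there were 3 libraries of unprimed cells (CPT) and 3 of epigenetically primed cells (CPT+GTA+5-Aza). CPT was given at 1 µM, GTA, a source of acetyl groups, at 2 mM, and 5-Aza, an inhibitor of DNA methylation, at 1 µM, for 24 h. Every group was grown in medium with fetal bovine serum, whose own Vitamin D the study did not exclude, and all libraries come from 1 cell line. The study's methods call the samples of an experiment independent without saying whether the libraries came from separate cultures, so the p-values measure the spread between these libraries, which may in part be technical.

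CPT is an analog of the hormone form of Vitamin D. It binds the Vitamin D receptor (VDR), a nuclear receptor that pairs with a retinoid X receptor (RXR), sits on response elements in DNA and recruits coactivators to nearby genes. CYP24A1, the enzyme that breaks the hormone down, is its best known target gene in many cell types, and in the pancreas VDR ligands are known for quieting activated stellate cells.

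Library totals ran from 17527797 to 21224665 counts without CPT and from 16162490 to 20564807 with CPT, and mitochondrial genes held 4.18% to 4.85% and 3.86% to 4.76% of them. Of 63677 identifiers listed, 32000 had a count and 17123 passed the filter on low counts. Levels are given as CPM, the counts scaled to library size, after TMM scaling. The ductal keratins KRT8 and KRT18 and the mesenchymal marker VIM were abundant, with mean levels without CPT of 1617, 774 and 5820 CPM, whereas EPCAM had a mean of 0.00794 CPM and CFTR was at 0. Acinar, islet, immune and endothelial marker lists each summed to at most 1.74 CPM in any library. Priming itself changed 5417 genes at an adjusted p under 0.05 (31.6%), which is the spread the block removes.

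Averaged over both priming states, CPT raised SHH and the long noncoding RNA UCA1 and lowered SEMA3D. These 3 genes, 0.0175% of those tested, were all that passed an adjusted p of 0.05 (edgeR quasi-likelihood test, Benjamini-Hochberg adjustment over the 17123 genes). The changes were small. SHH differed by 0.55 on the log2 scale, SEMA3D by −0.31 and UCA1 by 0.20, all under the 1.5-fold change that the study asked of a differentially expressed gene (DEG). The study's own call of SHH was for CPT against Con in unprimed cells, where its log2 fold change here was 0.68. At an unadjusted P under 0.05, 336 genes were higher (1.96%) and 444 lower (2.59%), 780 in all, where 856 of 17123 would have such a P if none differed. In a single priming state no gene passed the adjusted threshold with the same test, in unprimed cells (733 genes with an unadjusted P under 0.05) or in primed cells (464).

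SHH encodes Sonic hedgehog, a secreted ligand that binds Patched receptors on receiving cells. It lies at chr7:155799980-155812463 on the reverse strand of GRCh38 (ENSG00000164690). SHH stood at 14.9, 21.7 and 19.2 CPM in the Con libraries and at 29.0, 30.5 and 29.7 CPM with CPT. In primed cells it stood at 20.8, 19.4 and 21.7 CPM, and at 26.4, 29.0 and 27.6 CPM once CPT was added. The lowest of the 6 libraries with CPT lay above the highest of the 6 without it. The average log2 fold change was 0.55 (SE 0.0865, 95% interval 0.37 to 0.73, adjusted p = 0.0120 by edgeR's quasi-likelihood test). It was 0.68 in unprimed and 0.42 in primed cells, and these 2 values did not differ past the threshold (interaction, adjusted p = 1.00). In bulk RNA, a change in the number of cells that express a gene and a change per cell cannot be told apart. Averaged over cells without and with CPT, primed and unprimed cells differed in SHH by 0.02 on the log2 scale (adjusted p = 0.905). Leaving out 1 library at a time kept the estimate between 0.48 and 0.59. The adjusted p then rose to 0.0672 without Con replicate 3, 0.0532 without CPT replicate 1, 0.0560 without GTA+5-Aza replicate 2 and 0.0622 without CPT+GTA+5-Aza replicate 2, and stayed under 0.05 in the other 8 refits.

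UCA1 is a long noncoding RNA first described in bladder cancer. It lies at chr19:15828206-15836328 on the forward strand (ENSG00000214049). Its level was 242, 244 and 253 CPM in Con and 293, 282 and 292 CPM with CPT. Primed libraries held 370, 389 and 391 CPM without and 433, 435 and 420 CPM with CPT. Each state therefore showed no overlap, although the 2 states did not share a range, since UCA1 was higher in primed cells by 0.60 on the log2 scale, averaged over CPT (adjusted p = 3.47e-13). CPT added 0.20 (SE 0.0351, interval 0.12 to 0.27, adjusted p = 0.0417), with 0.23 in unprimed and 0.16 in primed cells. A model without the priming term gave an unadjusted P of 0.231 for this gene, at a log2 fold change of 0.19.

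SEMA3D encodes a secreted semaphorin, a guidance cue for growing axons and migrating cells. The gene spans chr7:84995553-85187056 on the reverse strand (ENSG00000153993). Con libraries held 77.7, 80.3 and 82.1 CPM, and CPT libraries 61.2, 54.8 and 65.5 CPM. In primed cells the values were 56.0, 60.3 and 57.3 CPM without and 50.3, 49.3 and 49.6 CPM with CPT. Libraries with CPT were lower without overlap in both states. The gene was also lower in primed than in unprimed cells, by a log2 fold change of −0.38 averaged over CPT (adjusted p = 7.75e-06). The average effect was −0.31 (SE 0.0570, interval −0.43 to −0.20, adjusted p = 0.0417), −0.40 in unprimed and −0.22 in primed cells. UCA1 and SEMA3D passed the adjusted threshold in only 2 of the 12 refits that left out a library, those without CPT replicate 2 or CPT replicate 3. In the other 10 refits their adjusted p ran up to 0.237 and 0.270.

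**Figure D1:**
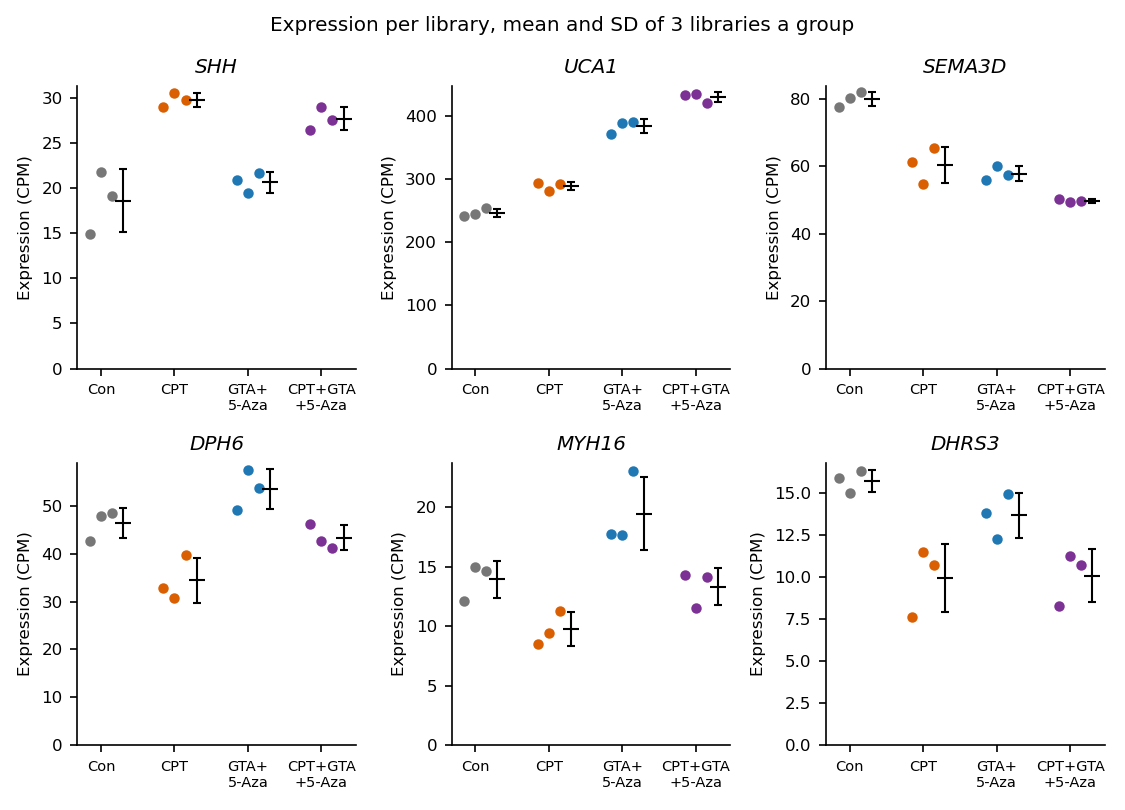
Expression in CPM (linear axis from 0) of SHH, UCA1, SEMA3D, DPH6, MYH16 and DHRS3 in each of the 12 libraries by group, with the mean and SD of 3 libraries beside the points. In every panel the CPT libraries and their counterparts without CPT do not overlap within a priming state, and SHH with CPT lies between 26.4 and 30.5 CPM in both states.

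The promoters of SHH and SEMA3D are shown because these genes carry the average effect and VDR acts through DNA elements near its targets. Each sequence holds the 250 bases before the RefSeq start of the gene (GRCh38.p14), on the gene's own strand, with capitals for a match to a VDR half-site. The half-site was searched as AGGTCA and equally as AGTTCA, with GGGTCA taken as a match too and likewise GGTTCA, on either strand. A direct repeat was a pair of them on 1 strand with 3 bases between.
SHH, chr7:155812464-155812713: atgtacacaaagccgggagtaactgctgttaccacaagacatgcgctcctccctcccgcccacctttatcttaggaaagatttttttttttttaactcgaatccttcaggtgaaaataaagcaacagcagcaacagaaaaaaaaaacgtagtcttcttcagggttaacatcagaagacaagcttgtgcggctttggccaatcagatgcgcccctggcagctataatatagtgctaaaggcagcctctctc
SEMA3D, chr7:85187057-85187306: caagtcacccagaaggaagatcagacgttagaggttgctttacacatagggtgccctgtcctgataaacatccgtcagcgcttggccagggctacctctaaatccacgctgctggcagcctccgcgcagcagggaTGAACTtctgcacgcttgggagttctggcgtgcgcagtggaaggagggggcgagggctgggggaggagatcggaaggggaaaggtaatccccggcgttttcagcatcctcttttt
The SHH window held no match. The SEMA3D window held 1, on the other strand, 115 bases before the start. A half-site occurred in 34.3% of all 27305 promoters in the table and in 28.7% of the 11047 promoters of tested genes. Among the 48 named genes with an entry it occurred in 15 promoters (31.2%), and none held a direct repeat, which 0.0586% of all promoters did. These are matches of letters in a short window and do not bear on VDR binding elsewhere.

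A further 3 genes had an adjusted p under 0.1 and were lower with CPT without overlap in either state. DPH6, an enzyme of diphthamide synthesis, ranged from 42.8 to 57.6 CPM (median 48.9) without CPT and from 30.8 to 46.3 CPM (median 40.5) with it. Its log2 fold change was −0.37 (SE 0.0697, adjusted p = 0.0585). MYH16, a transcribed myosin pseudogene, ranged from 12.1 to 23.0 CPM (median 16.3) without and from 8.47 to 14.3 CPM (median 11.4) with CPT, a log2 fold change of −0.53 (adjusted p = 0.0660). DHRS3, which reduces retinal to retinol, ranged from 12.3 to 16.3 CPM (median 15) without and from 7.64 to 11.5 CPM (median 10.7) with CPT. Its ranges did not meet even across the priming states, and the log2 fold change was −0.55 (SE 0.111, adjusted p = 0.0816). LAMA2, a laminin chain of basement membranes, followed at −0.33 (adjusted p = 0.103).

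On the higher side, CXCL1, a chemokine that draws neutrophils, ranged from 16 to 27.6 CPM without and from 23.7 to 30.9 CPM with CPT. Its average log2 fold change of 0.37 (adjusted p = 0.152) combined 0.55 in unprimed with 0.20 in primed cells (interaction, adjusted p = 1.00). TLNRD1, an actin-bundling protein, stood at a median of 24.6 CPM without and 30.7 CPM with CPT, a log2 fold change of 0.35 (adjusted p = 0.163). GOT1, the cytosolic aspartate aminotransferase, stood at medians of 54.3 and 64.9 CPM, a log2 fold change of 0.24 (adjusted p = 0.339). None of these 3 passed the adjusted threshold.

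**Figure D2:**
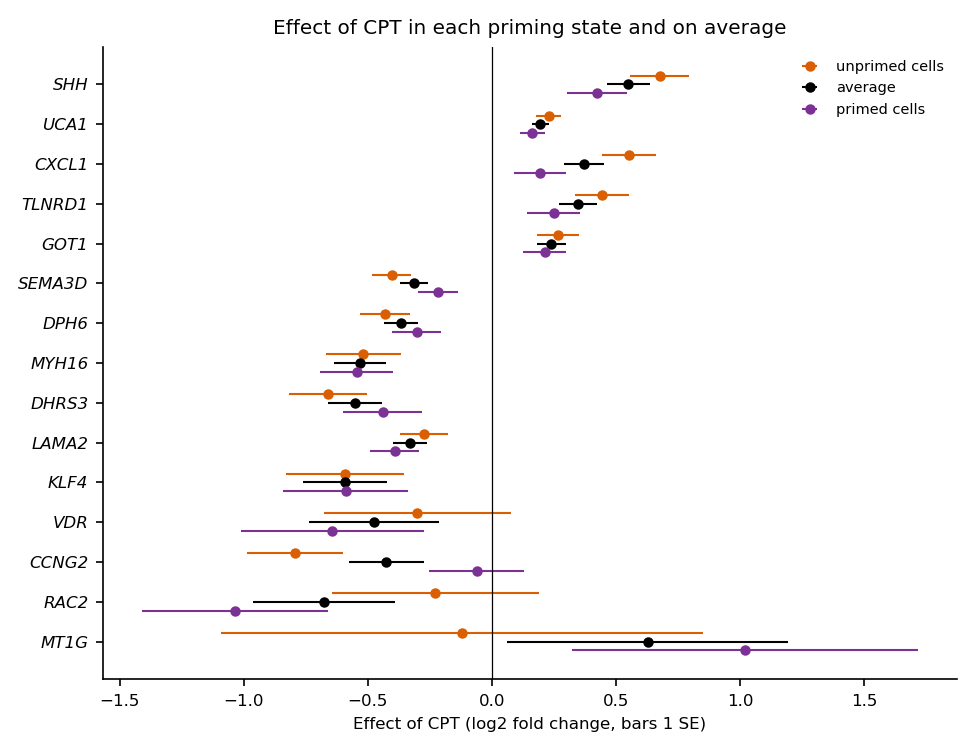
Log2 fold change with CPT (bars, 1 SE) in unprimed cells, in primed cells and on average for 15 named genes. For the first 11 the 2 states lie on the same side of 0, which the choice of genes by their average favours. CCNG2 lies at −0.79 in unprimed and −0.06 in primed cells, both below 0. MT1G lies on opposite sides of 0, at −0.12 in unprimed and 1.02 in primed cells.

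Agreement of direction between the states is largely fixed by the choice of genes on their average, and it is given only as a count. Of the 336 higher genes 334 had the same sign in both states, as did 439 of the 444 lower genes. Without overlap between the libraries in both states, 36 genes were higher (0.21%) and 70 lower (0.409%) among all 17123 tested. The test of the interaction asks the opposite question, whether the effect of CPT depended on priming. It found 451 genes at an unadjusted P under 0.05 (2.63%) and none past an adjusted p of 0.05, with a smallest adjusted p of 0.540.

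The study's rule was read here as a fold change above 1.5 with an unadjusted P under 0.05. By this reading 52 genes were higher (0.304%) and 113 lower (0.66%) with CPT. These 165 DEGs were weakly expressed. Of them 84 lay under 1 CPM, 81 between 1 and 10 CPM and 0 above 10 CPM, although 9836 of the tested genes lay above 10 CPM. None of the DEGs passed the adjusted threshold, and SHH, UCA1 and SEMA3D are not among them.

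**Figure D3:**
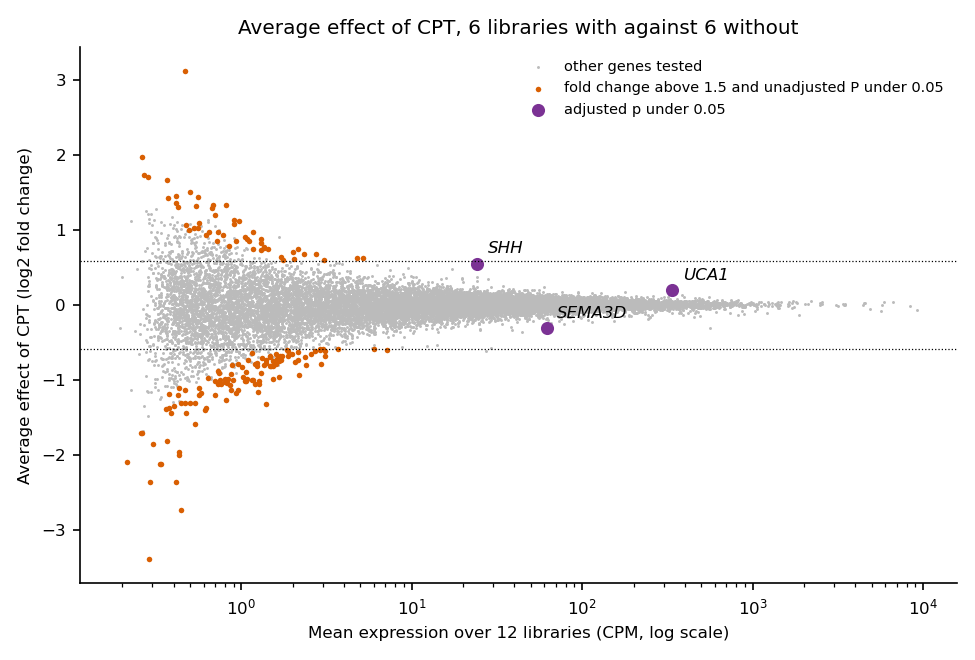
Average log2 fold change with CPT of the 17123 tested genes against mean expression in CPM (log axis), with dotted lines at a 1.5-fold change. The 165 DEGs (orange) lie below 10 CPM, and SHH, UCA1 and SEMA3D (purple) lie within or at the edge of the dotted lines, where spread between genes is narrower.

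The higher DEG with the smallest P was ZNF688, a zinc finger gene, at 2.77 to 4.38 CPM (median 3.92) without and 5.00 to 7.03 CPM (median 5.64) with CPT. Its log2 fold change was 0.62 (SE 0.156, adjusted p = 0.359) and no library with CPT fell into the range without it. LONRF1 (0.63), CPPED1 (0.68), BSCL2 (0.74), a seipin that shapes lipid droplets, and UBE2E2 (0.71), a ubiquitin-conjugating enzyme, were expressed at medians of 1.53 to 4.37 CPM without CPT. Each of these 4 was separated from its controls in 1 priming state only. LTBP1, which anchors latent TGF-beta in the matrix, had a log2 fold change of 1.5 (SE 0.563), from 0.0486 to 0.526 CPM without and from 0.184 to 1.53 CPM with CPT, so the ranges overlapped. The other higher DEGs named by rank were UBE2FP3, a pseudogene (1.43), NAV2-AS1 (1.12), ZNG1F (1.33) and ENSG00000183086. ZNG1F has near-identical family members, and NAV2-AS1 is antisense to its neighbour, so counts of both are uncertain where the strand setting of the counting is not given. ENSG00000183086 had 3 counts in all Con libraries together and 43 in the CPT libraries, a ratio of 15.3 (exact interval for counting error only, 4.89 to 77). Of the 43 counts, 40 were in CPT replicate 1, 0 in CPT replicate 2 and 3 in CPT replicate 3, so the ratio rested on 1 library. ENSG00000183086 also stood at 0 CPM in 1 primed library with CPT.

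Among the lower DEGs, ZNF469 and KLF4 were the best expressed of the 10 with the smallest P. ZNF469, a large zinc finger protein tied to the structure of the cornea, ranged from 7.36 to 10.6 CPM (median 8.56) without and from 4.28 to 7.45 CPM (median 5.49) with CPT. Its log2 fold change was −0.60 (SE 0.135, adjusted p = 0.167), without overlap in either state. ZNF610 (−0.94), another zinc finger gene, and SYNPO (−0.79), an actin-associated protein of kidney podocytes, were also lower without overlap in both states, at medians of 2.85 and 3.72 CPM without CPT. USH1G, a scaffold protein of hair cells in the ear, had the smallest P of the DEGs (adjusted p = 0.152) on very few counts. In unprimed cells it had 30 counts without and 1 with CPT, a ratio of 0.0355 (counting interval 0.000871 to 0.214). ANGPTL7 (−2.36), GJB5 (−1.95), a gap junction connexin, ENSG00000257298 (−1.32), SLC25A28-DT and ENSG00000261096 completed the 10. SLC25A28-DT had 29 counts without and 2 with CPT in primed cells, a ratio of 0.0736 (counting interval 0.00850 to 0.291). ENSG00000261096 was at 0 in all 3 primed libraries with CPT. With 3 counts in each library taken as the floor, it was at least 3.61-fold lower there than in primed cells without CPT.

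The Vitamin D machinery itself showed few differences. VDR was weakly expressed, at 1.52, 1.62 and 1.46 CPM in Con and 1.10, 1.43 and 1.2 CPM with CPT. In primed cells it stood at 1.55, 2.65 and 2.43 CPM without and at 1.48, 1.53 and 1.22 CPM with CPT. The libraries with CPT were lower in each state without overlap, but the average log2 fold change of −0.48 (SE 0.261, interval −1.01 to 0.06) did not pass the threshold (adjusted p = 0.999). The partners RXRA and RXRB were at mean levels without CPT of 90.7 and 41.7 CPM and at log2 fold changes of 0.00 and 0.03, with intervals of −0.12 to 0.12 and −0.10 to 0.17. CYP24A1 had 0 counts in 11 of the 12 libraries and 2 counts in CPT+GTA+5-Aza replicate 1. The floor was taken as 3 counts in each library, about 0.159 CPM in unprimed cells with CPT and for counting error only. A difference below that floor cannot be resolved from these counts. CYP27B1, which makes the hormone, lay at −0.23 (interval −1.06 to 0.59). CUBN, a receptor for the uptake of Vitamin D-binding protein, was the 1 gene of the 8 tested with an unadjusted P under 0.05, at −0.13 (SE 0.0424), where 2.59% of all tested genes were lower by that threshold and 1.96% higher. Of 13 coactivators and corepressors NCOA3 was lower (−0.12, SE 0.052) and SNW1 higher (0.11, SE 0.0471), by the same threshold and against the same shares. All 13 had intervals inside a 1.5-fold change, as did 71.9% of all tested genes and 99.8% of those above 10 CPM.

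Of 40 genes known as Vitamin D targets in other cells, 18 passed the filter, and 22 did not, among them CAMP, TRPV6, IGFBP3 and SPP1. In the 18 tested genes 0 were higher and 1 was lower at an unadjusted P under 0.05, beside 1.96% and 2.59% of all genes, and 0 passed the adjusted threshold. Their median log2 fold change was 0.09, against 0.0013 over all genes tested. By state, it was 0.0044 in unprimed and 0.084 in primed cells, against 0.0023 and 0.0014 over all genes tested. The lower gene was KLF4, a transcription factor of epithelial differentiation, at 5.56 to 9.20 CPM (median 6.5) without and 2.69 to 6.66 CPM (median 4.77) with CPT. Its log2 fold change was −0.59 (SE 0.168, adjusted p = 0.636) on average and −0.59 in each state, with the libraries separated in primed cells only. The well expressed targets were tightly bounded, MYC at 0.02 (interval −0.07 to 0.11), LRP5 at 0.01 (−0.11 to 0.13) and GADD45A at 0.04 (−0.17 to 0.24). CDKN1A, the cyclin kinase inhibitor p21, was at a mean of 2.16 CPM without and 2.48 CPM with CPT, a log2 fold change of 0.23 with an interval from −0.38 to 0.84. It was higher in primed cells by 2.75 on the same scale, averaged over CPT.

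**Figure D4:**
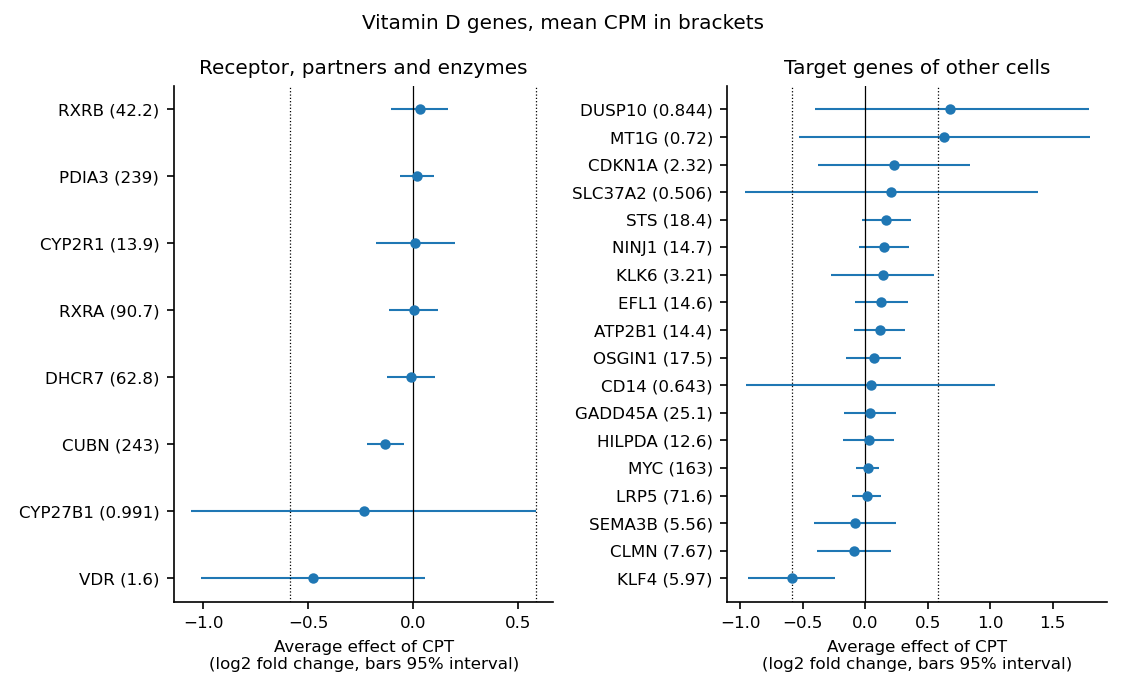
Average log2 fold change with CPT and its 95% interval for the 8 tested genes of Vitamin D reception and metabolism (left) and the 18 tested targets of other cells (right), with mean CPM in brackets and dotted lines at a 1.5-fold change. Intervals widen as expression falls, and only those of CUBN and KLF4 leave out 0.

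Beyond SHH, the study called CCNG2 lower with CPT in unprimed cells, and MT1G higher and RAC2 lower with CPT in primed cells. The averages here cover both states and are not the study's comparisons. CCNG2, a cyclin that slows the cell cycle, ranged from 6.36 to 11 CPM without and from 4.38 to 7.32 CPM with CPT. Its average log2 fold change was −0.43 (SE 0.151, adjusted p = 0.969), made of −0.79 in unprimed and −0.06 in primed cells (interaction, adjusted p = 1.00). RAC2, a small GTPase of blood cells, averaged −0.68 (SE 0.285), with −0.23 in unprimed and −1.04 in primed cells. Libraries with CPT were lower without overlap in unprimed cells only for CCNG2 and in primed cells only for RAC2. The interaction had an unadjusted P of 0.160 for RAC2 and 0.344 for MT1G (edgeR quasi-likelihood test). MT1G, a metallothionein that binds zinc and copper, averaged 0.63 (SE 0.567, interval −0.53 to 1.80, adjusted p = 0.999). The value rested on single libraries, at 0.18 without CPT replicate 1, 0.37 without GTA+5-Aza replicate 1 and 0.38 without CPT+GTA+5-Aza replicate 1. It stood at 0 to 0.605 CPM in unprimed cells with CPT and at 0.194 to 0.238 CPM without it. In primed cells it ranged from 1.02 to 2.22 CPM with and from 0.427 to 1.10 CPM without CPT, so the ranges overlapped in both states. The other 8 tested metallothioneins and zinc regulators had intervals inside a 1.5-fold change, as did 71.9% of all tested genes. MT2A, the most abundant, lay at 0.05 (interval −0.06 to 0.17).

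Among 12 tested Hedgehog genes SHH was the 1 that was higher at an unadjusted P under 0.05, and GAS1 and KIF7 were lower, beside 1.96% of all tested genes higher and 2.59% lower. GAS1, a surface coreceptor of Hedgehog ligands, had a log2 fold change of −0.26 (SE 0.123) with overlapping ranges. KIF7, a kinesin of the cilium tip, had −0.25 (SE 0.0884) and no overlap in unprimed cells only. The targets by which pathway activity is usually read gave no call. PTCH1, the receptor and feedback target, lay at −0.07 (interval −0.40 to 0.26), and GLI1 was under the filter with 72 counts over all libraries. GLI2 lay at 0.51 (interval −0.04 to 1.07) at a mean of 1.78 CPM without CPT, and SMO, the signal transducer, at 0.05 (interval −0.08 to 0.19).

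Of 23 tested immediate-early and KLF factors, 4 were higher (FOSL1, EGR1, KLF2 and KLF10) and KLF4 was lower at an unadjusted P under 0.05, beside 1.96% of all tested genes higher and 2.59% lower. The median log2 fold change of the list was 0.11, and 0 passed the adjusted threshold. By state, the median was −0.0056 in unprimed and 0.10 in primed cells. EGR1, a factor induced within minutes by growth signals, ranged from 9.04 to 29.8 CPM without and from 13.0 to 31.3 CPM with CPT. Averaged over cells without and with CPT, it was higher in primed than in unprimed cells by 1.15 on the log2 scale (adjusted p = 2.16e-10). Its log2 fold change with CPT was 0.31 (SE 0.0931), 0.37 in unprimed and 0.26 in primed cells. KLF10, a factor induced by TGF-beta, was separated in both states, from 46.6 to 51.0 CPM without and from 51.9 to 60.3 CPM with CPT, a log2 fold change of 0.19 (adjusted p = 0.733). FOSL1 (0.13) and KLF2 (0.17) were smaller still.

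Cell cycle genes gave few calls. Among 26 tested brakes 0 were higher and 4 were lower at an unadjusted P under 0.05, namely CDKN1C, CCNG2, TOB1 and FOXO1, beside 1.96% of all tested genes higher and 2.59% lower, and the median over the list was 0.01. CDKN1C, the kinase inhibitor p57, ranged from 7.91 to 14.2 CPM without and from 5.95 to 10.3 CPM with CPT, a log2 fold change of −0.43 (SE 0.12). TOB1 lay at −0.20 (SE 0.0721) and FOXO1 at −0.97 (SE 0.465) on levels under 2 CPM. Of 30 tested replication and mitosis genes 4 were higher and 0 lower, CCNB2 (0.11), CDC6 (0.10), CDT1 (0.11) and RRM2 (0.09), by the same threshold and against the same shares of 1.96% and 2.59%. All 30 had intervals inside a 1.5-fold change, with a median of 0.03. None of 36 tested apoptosis genes had an unadjusted P under 0.05 in the quasi-likelihood test, and 32 of them had intervals inside a 1.5-fold change. Among all tested genes 71.9% had such an interval, and 99.8% of those above 10 CPM. By state, the median of the apoptosis list was 0.037 in unprimed and −0.016 in primed cells, against 0.0023 and 0.0014 over all genes tested. The study examined apoptosis genes by gene set enrichment within each state, which an average over both states does not address.

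In the TGF-beta list 4 of 23 tested genes were higher and 2 lower at an unadjusted P under 0.05, beside 1.96% of all tested genes higher and 2.59% lower, and the other counts of this paragraph use that threshold. The higher genes were LTBP1, CCN1 (0.16, SE 0.0527), ID1 (0.11, SE 0.0414) and ID3 (0.14, SE 0.0491, and 0.09 without CPT replicate 2). The last 3 were listed as targets, though other pathways act on them too. LTBP1 had an unadjusted P of 0.0879 without CPT+GTA+5-Aza replicate 1 (edgeR quasi-likelihood test). Lower were LTBP3 (−0.21, SE 0.0692) and the coreceptor TGFBR3 (−0.19, SE 0.0602). The ligands and SMADs gave no call. TGFBI, a matrix protein, was the 1 lower gene of 19 tested for epithelial to mesenchymal transition and migration (−0.17, SE 0.0762), while VIM lay at 0.03 (interval −0.02 to 0.09). Of 17 tested adhesion genes, CLDN4, a tight junction claudin (−0.28, SE 0.084), and PKP3, a desmosomal plakophilin (−0.22, SE 0.0714), were lower and 0 were higher, against the shares of 2.59% and 1.96%.

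Of 31 tested interferon-stimulated genes, 21 were higher and 1 was lower in primed cells at an adjusted p under 0.05, beside 17.1% and 14.6% of all tested genes. With CPT, 0 of the 31 were higher and IFIT1 was lower (−0.22, SE 0.0789) at an unadjusted P under 0.05, and the median was −0.06. By that threshold 1.96% of all tested genes were higher and 2.59% lower, which is the background of the next 3 counts too. In the ATF4 and endoplasmic reticulum stress list 3 of 20 were higher, ATF4 itself (0.13, SE 0.0558), the glutathione-degrading CHAC1 (0.41, SE 0.189) and PSAT1 of serine synthesis (0.10, SE 0.0449). All 3 lost an unadjusted P under 0.05 in some refit that left out 1 library. Their P then rose to 0.0984, 0.147 and 0.134 (edgeR quasi-likelihood test). In sterol and fatty acid synthesis 2 of 26 were higher, SC5D, a late enzyme of cholesterol synthesis (0.53, SE 0.171), and INSIG1, a brake on sterol production (0.18, SE 0.0728, and 0.12 without CPT+GTA+5-Aza replicate 3). SC5D had 0.84 in unprimed and 0.21 in primed cells. Of 23 tested calcium pumps, channels and sensors CALM3 was the 1 higher gene (0.08, SE 0.0357). Across the 17 lists SHH was the 1 gene past the adjusted threshold, and the adjusted p of every other member named here was at least 0.551 in edgeR's quasi-likelihood test. The 45 listed genes with a count that fell under the filter gave no exact permutation p under 0.05 (labels permuted within priming states, 400 arrangements, smallest two-sided p possible 0.005).

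**Figure D5:**
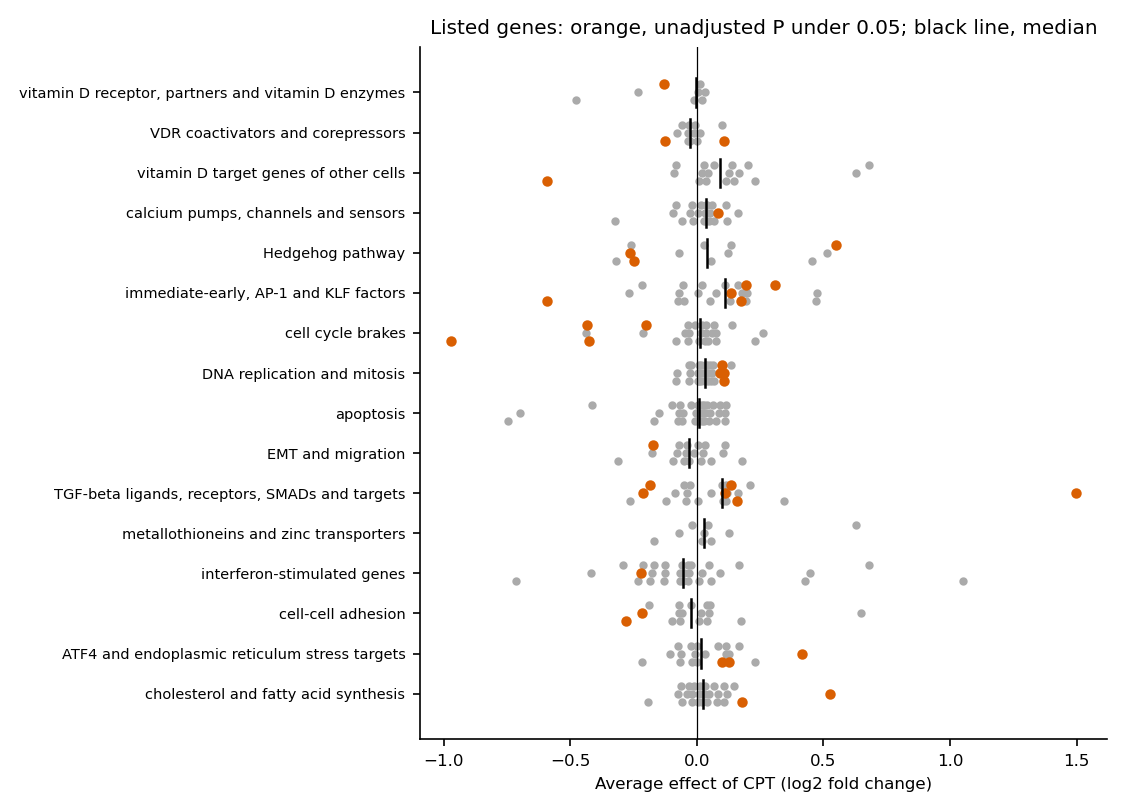
Average log2 fold change with CPT of every tested member of 16 of the 17 gene lists, with members at an unadjusted P under 0.05 in orange and the median of each list as a black line. Medians lie between −0.06 and 0.11, and the rightmost point is LTBP1 at 1.5.

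Of the fibroblast and stellate marker list, 2 collagen genes were lower with CPT at an unadjusted P under 0.05, as were 2.59% of all tested genes. COL1A2 was at a mean of 853 CPM without and 779 CPM with CPT, a log2 fold change of −0.13 (SE 0.0338, adjusted p = 0.404) without overlap in either state, and COL3A1 lay at −0.13 (SE 0.0502). The summed level of this list was 879 to 1069 CPM without and 780 to 942 CPM with CPT, and its members DCN, PDGFRA and PDGFRB were under the filter while LUM was at 0. Whether cells of another type take part in this difference was not tested. By the same threshold the ductal list had 1 higher gene, MUC1 (0.53, SE 0.259), and 1 lower, KRT19 (−0.14, SE 0.0656), and its sum was 2407 to 2841 CPM without and 2247 to 2799 CPM with CPT. The mesenchymal list summed to 5365 to 6341 and 5494 to 6663 CPM.

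Averaging over both priming states narrowed the estimates. The median SE of the log2 fold change was 0.0998 for the average and 0.142 in either state alone, and for the 9836 genes above 10 CPM it was 0.0671 against 0.0960 in unprimed cells. The 95% interval lay inside a 1.5-fold change for 12307 genes (71.9%), for 99.8% of those above 10 CPM and for 0% of the 2463 under 1 CPM. A 1.5-fold average effect was therefore bounded gene by gene for well expressed genes and not for those at the level of VDR or MT1G.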

How the data were processed

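RNA-seq was performed with 150 bp paired-end reads on 12 libraries of MiaPaca2 cells, 3 a group. Per the study's methods, Trim Galore was used for trimming, HISAT2 2.2.1 for alignment to GRCh38 and HTSeq for gene counts. The strand setting and annotation release are not given in the sources used here. The authors deposited unscaled counts, 1 value for each gene and library, and rows that name no gene held 0% of them. Groups and replicate numbers came from the sample labels. Symbols, biotypes and coordinates came from GENCODE 44 (GRCh38) by identifier. Of 63677 identifiers 52181 were matched, with 99.0% of the counts, and 11496 were used as given.

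The analysis ran on the counts in edgeR 4.0.16 under R 4.3.3. Genes were kept by filterByExpr on the 4 groups (17123), scaled by TMM and fitted with glmQLFit as priming plus CPT. The common dispersion was 0.00969, and the prior had 18.9 degrees of freedom. CPT was tested with glmQLFTest and p-values were adjusted over all 17123 genes by the Benjamini-Hochberg method. The interaction and the effect in each priming state came from a model with 4 groups. Intervals are 95% intervals of the log2 fold change. DEGs followed the thresholds of the study's methods. Listed genes under the filter were tested by an exact two-sided permutation test of CPM within priming states. Named genes are every gene past an adjusted p of 0.05, the 10 higher and 10 lower DEGs and the 5 higher and 5 lower genes with the smallest P, the genes the study names for CPT with VDR and CYP24A1, list members with an unadjusted P under 0.05, and the 5 genes with the smallest interaction P. COL1A2, COL3A1 and other marker genes without a call, and list members given as bounded, were chosen after their values were seen. The members and gene lists were chosen with earlier results of these data known. ORAI1, DDX58 and ACACA were not matched and are not analysed here, and some listed genes are not reported here.

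Alternatives were the likelihood ratio test, DESeq2 1.42.0, limma 3.58.1 with voom, glmTreat, other scalings and filters, other models, removal of a GC trend, removal of a gene span trend (added after seeing the data), the replicate number as a block and leaving out each library. Replicates of a group differed by more than sampling noise, so no library was counted as a repeat.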

Additional observations from a re-analysis of the deposited data

Results flagged for a closer look

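The effect of CPT differed between unprimed and primed cells at an unadjusted interaction P under 0.05 for 8 of the 70 named genes that were tested, and 5 of the 8 were named for that P. None of these differences passed an adjusted p of 0.05 (edgeR quasi-likelihood test), and values are log2 fold changes in primed minus unprimed cells. EFNA1, a membrane-bound ephrin ligand, differed by 1.35, from −0.60 in unprimed to 0.76 in primed cells (adjusted p = 1.00). Its level was 5.00 to 6.47 CPM in Con, 3.30 to 4.13 CPM with CPT, 2.56 to 4.35 CPM in primed cells and 5.69 to 6.66 CPM in primed cells with CPT. ANKRD16 differed by −0.82, from 0.50 to −0.32. CCNG2 differed by 0.73 and CXCL1 by −0.36.

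The other 4 rest on few counts. HSPA6, a heat shock protein with a near-identical copy in the genome, differed by −6.96 (adjusted p = 0.540), with 1 count in Con and 19 with CPT, a ratio of 20.2 (counting interval 3.22 to 841). ENSG00000273361 differed by −6.44 (adjusted p = 0.540), with 32 counts in primed cells and 1 with CPT added, a ratio of 0.0333 (counting interval 0.000819 to 0.2). The pseudogene UPF3AP3 differed by 5.96, with 29 counts in Con and 1 with CPT, a ratio of 0.0367 (counting interval 0.000900 to 0.222). ENSG00000261096 differed by −4.74, a fitted value that depends on the prior count because 1 group is at 0.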

How the results depend on the processing

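The log2 fold changes of SHH, UCA1 and SEMA3D kept their direction under all 27 alternatives run, at 0.48 to 0.59, 0.19 to 0.21 and −0.33 to −0.27. The quasi-likelihood test in edgeR called 3 genes past the adjusted threshold. That number was 18 with the likelihood ratio test, 16 with DESeq2, 5 with upper quartile scaling, 22 with no low-count filter, 15 with the GC trend removed, 1 with the mean of the contrasts, 0 with glmTreat against 1.5-fold and 0 without the priming term, and the cause was not tested beyond the construction of each. All 3 genes were among those called by the likelihood ratio test, DESeq2, upper quartile scaling, no filter and GC removal. Leaving out 1 library gave 0 to 9 genes, with 0 without Con replicate 3, CPT replicate 1, GTA+5-Aza replicate 2 or CPT+GTA+5-Aza replicate 2, 1 in 6 refits, 6 without CPT replicate 2 and 9 without CPT replicate 3. With the replicate block 1 gene remained, SHH, with UCA1 and SEMA3D at an adjusted p of 0.0592, and the replicate block with GC removal gave 14. Deviations of libraries with the same replicate number correlated at −0.52 to 0.56 over 18 pairs, 6 of them above 0.1. Those with different numbers correlated at −0.51 to 0.49 over 36 pairs, and 2 of 12 libraries correlated best with their own number. The replicate number therefore did not mark out pairs by this measure. Con replicate 2, CPT replicate 2, GTA+5-Aza replicate 3 and CPT+GTA+5-Aza replicate 2 correlated with each other at 0.25 to 0.56. These libraries were picked after the correlations were seen. The replicate block does not put them together, because their numbers differ. A model that takes up spread shared in this way was not tested. Higher DEGs, 52 in the main test, numbered 85 with the likelihood ratio test, 15 with glmTreat, 320 with no filter and 19 at over 1 CPM in 6 libraries. Lower DEGs, 113, numbered 34 with glmTreat, 474 with no filter and 60 at over 1 CPM. Genes with an unadjusted P under 0.05, 780, numbered 49 with glmTreat, 1461 with no filter and 350 without the priming term. The interaction was refitted only at over 1 CPM in 6 libraries, with the replicate block and with each library left out. It gave 0 genes past the adjusted threshold each time. It was not refitted with the likelihood ratio test, DESeq2, GC removal or no filter. Over the named genes 1610 refitted values kept their side of the threshold, 199 lost it, 1 gained it and 0 reversed, where the threshold is the adjusted p for the 3 called genes and an unadjusted P of 0.05 for the other 67. By adjusted p, 46 of the 1729 refitted values of those 67 passed 0.05, in 12 genes. Leaving out some 1 library raised the unadjusted P of NCOA3, SNW1, CALM3, GAS1, FOSL1, FOXO1, CCNB2 and CDC6 above 0.05. The same held for CDT1, TGFBI, RAC2, LTBP1, ATF4, CHAC1, PSAT1, INSIG1, UBE2FP3, ZNG1F and NAV2-AS1. The median SE was 0.499 under 1 CPM and 0.0671 above 10 CPM, so weakly expressed genes were the less precisely measured.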

Other observations

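A set of 9 genes were past an adjusted p of 0.05 under the likelihood ratio test, DESeq2, GC removal and no filter alike, the 3 genes called by the quasi-likelihood test and DPH6, MYH16, DHRS3, LAMA2, TANC2 and ANK1. These settings were those with the most calls, and they refit the same libraries, so they are not independent. By contrast, limma with voom called 3 genes and the replicate block 1. TANC2, a synaptic scaffold protein, had an average log2 fold change of −0.21 (adjusted p = 0.152 in the quasi-likelihood test) at a mean level of 165 CPM without and 143 CPM with CPT. ANK1, a membrane ankyrin, had −0.22 (adjusted p = 0.163), at 122 and 105 CPM, and was lower without overlap in both states. AHNAK2, a large scaffold protein, was also lower without overlap in both states, at −0.19 (adjusted p = 0.276) with 258 and 226 CPM.

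Across 8942 protein-coding genes at 10 CPM or more, the average log2 fold change correlated with gene span at a Spearman rho of −0.149, with transcript length at −0.145 and with GC content at 0.0548. Genes are not independent replicates and the points share libraries. The correlation with span was −0.138 in unprimed and −0.0872 in primed cells, from separate libraries. The median log2 fold change fell from 0.021 in the fifth of genes with the shortest span to −0.0095 in the fifth with the longest. Removing the trend with span left SHH at 0.54 and SEMA3D at −0.30 past the adjusted threshold (adjusted p = 0.00619 and 0.0299), with UCA1 at an adjusted p of 0.0845.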
